A study of Mus musculus with 10 samples.

Results

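Bdnf and Fkbp5 were followed in the prefrontal cortex of mice with collagen-induced arthritis and of their controls. Bdnf encodes a secreted neurotrophin of neuronal plasticity and Fkbp5 a co-chaperone of the stress hormone receptor. The members were the probes that the platform annotation assigns to these genes, namely 1 probe for Bdnf (Entrez 12064) and 1 for Fkbp5 (Entrez 14229), 2 of the 9066 probes that carry 1 gene symbol. These probes stand for 8726 genes. The Bdnf spot lies in grid row 11 and grid column 4 of the printed array, and the Fkbp5 spot in grid row 10 and grid column 3.

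All mice were DBA/1 males of 8 weeks, from an inbred strain in which type II collagen provokes arthritis. The control injection was 200 µl of Complete Freund's adjuvant, and the collagen injection was 100 µl of type II collagen mixed with 100 µl of the adjuvant. Both arms were given LPS, a bacterial endotoxin, at day 24, so no group is free of adjuvant or endotoxin, and collagen cannot be told apart from the smaller volume of adjuvant. The labels give no score of arthritis and no number of mice behind an array. RNA of both arms was hybridised to each of 10 arrays, in a pair of dyes. The arrays form 5 dye-swap pairs, which the titles number 1, 2, 3, 1 and 2, so pairs 1 and 4 made replicate 1, pairs 2 and 5 replicate 2, and pair 3 replicate 3. The series text gives 3 biological replicates with technical dye swaps, but the labels do not say that numbers mark separate animals. They also do not say whether pairs 4 and 5 used the same RNA as pairs 1 and 2. The p-values then cover only the spread among these samples, part or all of which may be technical.

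BDNF is made as a precursor, is stored in secretory granules of neurons and binds the receptor tyrosine kinase TrkB, which Ntrk2 encodes. Its gene is transcribed in response to synaptic activity through factors such as CREB, and in the cortex it is known for synapse maturation and long-term plasticity. FKBP51, the product of Fkbp5, binds Hsp90 in the glucocorticoid receptor complex and lowers the affinity of the receptor for its hormone. Glucocorticoids induce Fkbp5, which closes a short feedback loop, and the gene is widely used as a readout of glucocorticoid action in brain.

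Every array was read 3 times at rising gain, and the share of its spots with a signal in both channels ran from 44.5% to 85.1%. Of 10 neuronal markers 7 had a probe, and all of those were measured on at least 5 arrays, with only Stmn2 on all 10. The same held for all probed markers of microglia and macrophages (5), oligodendrocytes (2), choroid plexus and ependyma (2) and striatum (2). Of 2 probed astrocyte markers 1 was measured so often. Detection of these markers therefore does not set cortex apart from striatum or choroid plexus. Markers of endothelium and of blood had 0 probes, so those cells could not be checked. Ratios are given as log2 of collagen over control, on the assumption that channel A is Cy3 and channel B is Cy5, which follows the order of the dyes in the labels. No file ties the letters to the dyes, so no direction is settled, and the other assignment would turn every sign and leave every size.

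The Bdnf spot was measured in both channels on 9 of 10 arrays and in 25 of 30 readings. Channel A held a signal in all 30 readings and channel B in 25. In pair 1 the mean intensity over the readings, in units of 1000 after background subtraction, was 824 for collagen and 1080.35 for control with collagen on Cy5, and 116 and 186 with collagen on Cy3. In pair 2 the intensities were 225 for collagen and 320.4 for control with collagen on Cy5, and 151 and 51.4 with collagen on Cy3. Control was the brighter channel on the first 3 of these 4 arrays, and collagen on the last.

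In pair 3 with collagen on Cy3, Bdnf read 163 units of 1000 for collagen and 139 for control. With collagen on Cy5 the collagen channel was measured in 1 reading only, at 30947 units against 62639 for control in the same reading. Replicate 3 of Bdnf therefore rests on a single reading of one of its arrays. In pair 4 with collagen on Cy5 the collagen channel had no signal in any reading, while control read 393. On the other array of that pair the intensities were 514 for collagen and 587 for control. Pair 4 thus gave no dye-balanced ratio, and replicate 1 of Bdnf came from pair 1. In pair 5 the intensities were 605 and 604 with collagen on Cy5, and 406 and 582 with collagen on Cy3.

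The signal of Bdnf stood well clear of its surroundings on some arrays only. After background subtraction, its intensity was 0.772 to 6.61 times the local background in Cy3 and 0.616 to 8.42 times in Cy5. A value below 1 is still a signal above background, as the background was already subtracted. The value exceeded 1 on 5 of 10 arrays in Cy3 and on 7 of the 9 measured in Cy5. The brightest spot was that of pair 1 with collagen on Cy5.

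The Fkbp5 spot was also measured in both channels on 9 of 10 arrays and in 25 of 30 readings, but its signal was lower against its surroundings. After background subtraction, its intensity was 0.688 to 1.76 times the local background in Cy3 and 0.224 to 1.68 times in Cy5. The value exceeded 1 on 4 of 10 arrays in Cy3 and on 2 of the 9 measured in Cy5. In pair 1 the mean intensities in units of 1000 were 70.3 for collagen and 118 for control with collagen on Cy5, and 26.6 and 23.4 with collagen on Cy3. In pair 2 they were 36.4 and 111 with collagen on Cy5, and 107 and 35.4 with collagen on Cy3. On these 4 arrays the Cy3 channel was the brighter one whichever sample it carried.

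In pair 3 with collagen on Cy5 the collagen channel of Fkbp5 had no signal in any reading, and control read 58.4. The other array of pair 3 gave 88.4 for collagen and 101 for control, so replicate 3 has no dye-balanced Fkbp5 ratio. In pair 4 with collagen on Cy5 the intensities were 107 and 291. With collagen on Cy3 the control channel was measured in 1 reading only, at 32805 units against 122192 for collagen in that reading. In pair 5 the intensities were 207 for collagen and 276 for control with collagen on Cy5, and 247 and 150.4 with collagen on Cy3. Both genes therefore lost 1 array, a different one for each, and each has 1 further array that rests on a single reading.

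**Figure D1:**
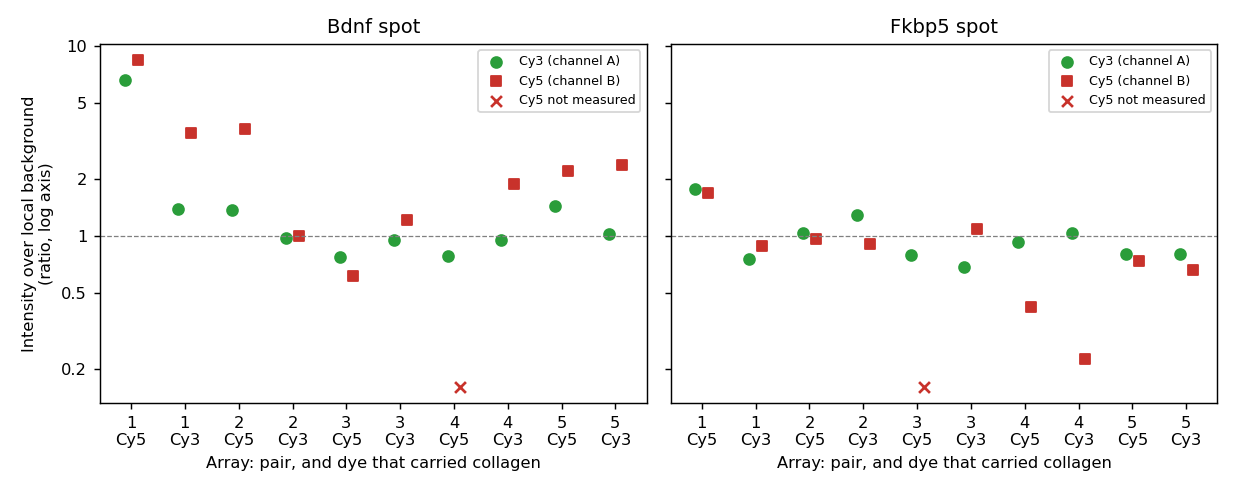
Spot intensity after background subtraction divided by the local background (log axis) for Bdnf and Fkbp5 on each of 10 arrays, in Cy3 (circles) and Cy5 (squares), as the mean over the readings that measured the channel. A cross marks an array whose Cy5 channel was not measured and is not a value. Bdnf reaches 8.42 in Cy5 on the array of pair 1 with collagen on Cy5, and Fkbp5 stays at or below 1.76 on all arrays.

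Bdnf in the cortex of collagen and control mice could not be told apart beyond the spread of the replicates. After loess normalisation, which removes the trend of the ratio with brightness over the whole array, the log2 ratio was 0.08 in replicate 1, -0.25 in replicate 2 and 0.08 in replicate 3. The replicates lay on both sides of 0. Their mean was -0.03 (SE 0.11, SD 0.19, n = 3 replicates), with a 95% interval of -0.29 to 0.23, which is 0.816 to 1.18 as a fold. Bdnf did not pass limma's test across 4125 probes (adjusted p = 0.932), in which 0% of probes passed in either direction and the lowest adjusted p was 0.642. At an unadjusted p under 0.05 the same fit gave 2.38% of probes higher and 4.12% lower, and Bdnf was not among them. The tissue was measured in bulk, so fewer cells of a type and less RNA per cell cannot be told apart.

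Averaged over both dyes, Bdnf read 0.08 for pair 1, -0.30 for pair 2, 0.08 for pair 3 and -0.20 for pair 5. Both pairs of replicate 2 were negative and the single pairs of replicates 1 and 3 positive. Without replicate 2 the mean was 0.08 (adjusted p = 0.905 by limma), on the other side of 0. The SD between replicates was 0.19 for Bdnf against a median of 0.17 over all probes fitted, so the gene was about as variable as a usual probe. Its difference from 0 was smaller than that of most probes, as 14.9% of them had a smaller one.

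The Bdnf ratio of single arrays is given here by dye. With collagen on Cy5 it was -0.17, -0.75, -0.26 and -0.22 for pairs 1, 2, 3 and 5. With collagen on Cy3 it was 0.33, 0.14, 0.42, -0.03 and -0.17 for pairs 1 to 5. The ratio was negative on 4 of 4 arrays of the first kind and on 2 of 5 of the second. Expressed as log2 of Cy5 over Cy3, the dye difference of Bdnf was -0.25, -0.44, -0.34 and -0.03 in pairs 1, 2, 3 and 5. Its mean over replicates was -0.27 (SE 0.11, n = 3), larger in size than the collagen difference. It did not pass limma's test after adjustment (adjusted p = 0.229, unadjusted p = 0.0424), in a fit where 1.79% of probes passed after adjustment and 20.4% at an unadjusted p under 0.05. Averaging over both dyes cancels this term in a pair, but the array of pair 4 that is left has no partner.

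**Figure D2:**
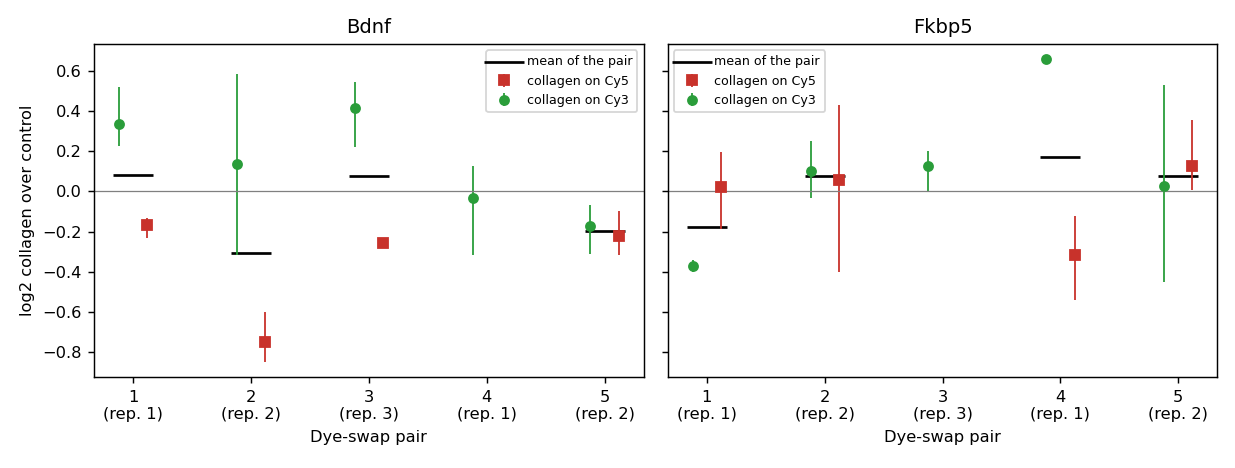
The log2 ratio of collagen over control for Bdnf and Fkbp5 by dye-swap pair, with collagen on Cy5 (squares) or on Cy3 (circles). Points are the mean over the readings, vertical lines run from the lowest to the highest reading, and the black bar is the mean of a complete pair. For Bdnf all 4 squares lie below 0, with the lowest at -0.75, and the pair means lie between -0.30 and 0.08. For Fkbp5 the pair means lie between -0.18 and 0.17.

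The Bdnf ratio was set beside the grid it was printed in. Probes of that grid had a median log2 ratio of -0.24 and 0.37 on the arrays of pair 1, -0.53 and 0.45 in pair 2, -0.11 and 0.41 in pair 3 and -0.09 and 0.10 in pair 5, each time first with collagen on Cy5. The grid median had the sign of Bdnf on 7 of 9 arrays, and that of the Fkbp5 grid had the sign of Fkbp5 on 7 of 9 as well. With print-tip loess, a loess fitted within each grid, Bdnf read 0.11, -0.17, 0.19 and -0.10 with collagen on Cy5 in pairs 1, 2, 3 and 5. With collagen on Cy3 it read 0.02, -0.22, -0.07, -0.08 and -0.26 in pairs 1 to 5. The dye difference of Bdnf was then 0.08 (SE 0.08, adjusted p = 0.668 by limma), and 1.43% of probes passed that test. The collagen ratio of Bdnf was then -0.02 (adjusted p = 0.964 by limma). The part of dye or grid in the Bdnf ratio of an array was not tested further.

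**Figure D3:**
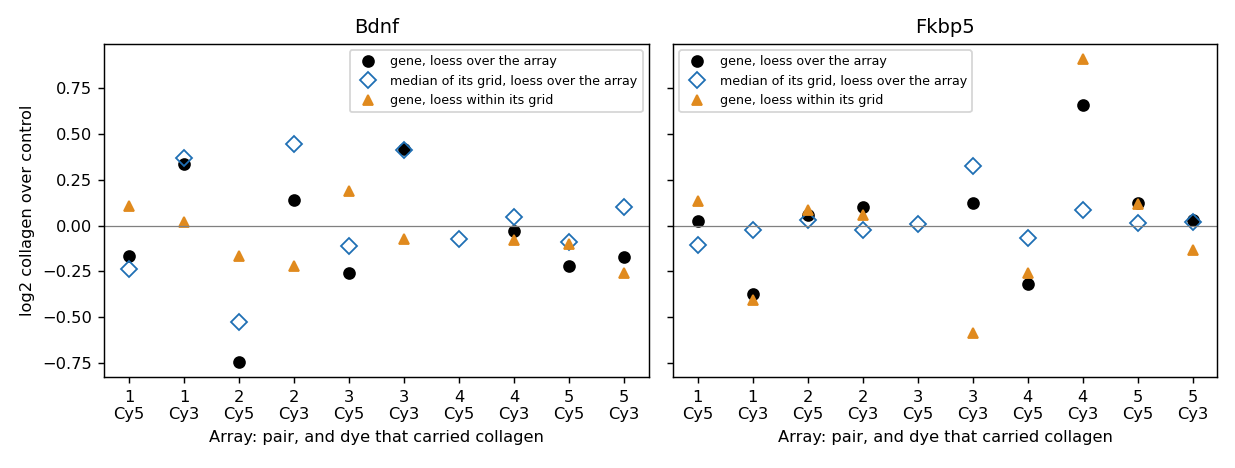
The log2 ratio of collagen over control on each array for the gene after loess over the whole array (circles), for the median probe of the gene's grid after that loess (diamonds), and for the gene after loess within its grid (triangles). The diamonds run from -0.53 to 0.45 for Bdnf and from -0.11 to 0.33 for Fkbp5, and for each gene they lie on the side of the circles on 7 of 9 arrays.

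Repeated readings of one spot, taken at rising gain, gave a measure of the error between readings, not between slides. The highest and lowest of the 3 Bdnf ratios of an array were 0.27 apart on the log2 scale as a median over arrays, and 0.90 apart on the array of pair 2 with collagen on Cy3, where they ran from -0.31 to 0.58. For Fkbp5 the median distance was 0.36 and the largest 0.98, on the array of pair 5 with collagen on Cy3, from -0.45 to 0.53. These spans were larger than the mean collagen difference of either gene. That difference is an average over readings, dyes and replicates, so the measures are not alike.

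Fkbp5 gave no difference that could be told from 0 either, and only replicates 1 and 2 measured it on both arrays of a pair. With collagen on Cy5 its log2 ratio was 0.02, 0.06, -0.32 and 0.13 for pairs 1, 2, 4 and 5. With collagen on Cy3 it was -0.37, 0.10, 0.12, 0.66 and 0.03 for pairs 1 to 5. The ratio lay above 0 on 7 of 9 arrays, with arrays of pairs 1 and 4 below it, and on 5 of 9 with print-tip loess. The value of 0.66 came from the array measured in a single reading.

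The pair means of Fkbp5 were -0.18, 0.08, 0.17 and 0.08 for pairs 1, 2, 4 and 5. Both pairs of replicate 1 lay on opposite sides of 0 and averaged to -0.00, while those of replicate 2 lay close together and gave 0.08. The mean over these replicates was 0.04 (SE 0.12, n = 2), with a 95% interval of -0.27 to 0.34, or 0.830 to 1.27 as a fold. In limma's fit over 6499 probes with at least 2 replicates its adjusted p was 0.937. Where the array of pair 4 with a single reading was left out, an alternative chosen after seeing the data, the mean was -0.05 (adjusted p = 0.922 by limma). With print-tip loess the same array read 0.91 and that of pair 3 went from 0.12 to -0.59, and the mean over replicates was 0.06.

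Set side by side, Bdnf had a mean ratio below 0 and Fkbp5 one above 0, each much smaller than its standard error. The authors' deposited table holds a value for Bdnf on 8 arrays, from -0.20 to 0.03, with 6 below 0 and 2 above. For Fkbp5 the authors' deposited table holds 6 values, from -0.21 to 0.20, with 4 above 0. No source used here gives the base of these log ratios.

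Most receptors of the neurotrophins could not be compared, for lack of a probe or of a value in all replicates. Of 9 genes for neurotrophins and their receptors 5 had a probe, and 1 was measured in all replicates. Ntrk2, the TrkB receptor itself, had a log2 ratio of -0.04, -0.02 and -0.11 in the replicates, with a mean of -0.06 (SE 0.09, adjusted p = 0.812 by limma). All replicates lay slightly below 0 and none beyond the spread. Ntrk3, the receptor of neurotrophin-3, was measured on 3 arrays, from -0.25 to -0.08. Ngfr, the p75 receptor that binds proneurotrophins, was measured on 3 arrays, from -0.80 to 0.79. Sort1, the sorting receptor sortilin, had values on 5 arrays from -0.91 to 0.94. Its relative Sorcs2 had values on 6, and 0.16 and 0.19 in replicates 1 and 2.

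Of the genes around BDNF 0 passed the test. The lists cover receptors, processing, TrkB signalling, regulators of Bdnf transcription and activity genes, 114 genes in all, of which 56 had a probe. Of the 35 probes measured in all replicates 13 lay above 0 and 22 below, or 37.1% above, against 45.5% of all probes fitted. Their median was -0.07 on the log2 scale against -0.02 over all probes. At an unadjusted p under 0.05 limma gave 5 of the 35, against 6.5% of all probes. With print-tip loess 12 lay above 0 and 23 below, against 1864 of all 4125 probes above 0, and the median was -0.01 for the list and for all probes. These splits were not tested, and each side turns with the assignment of the channel letters.

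Among processing and secretion genes, the proprotein convertase Pcsk6 was highest at 0.19 (SE 0.15) and the carboxypeptidase Cpe, which helps sort BDNF to granules, lowest at -0.03 (SE 0.11). For Pcsk6 replicate 1 read 0.63 and the others 0.00 and -0.07, so the mean came from 1 replicate. In TrkB signalling the cap-binding translation factor Eif4e stood at 0.25 (SE 0.12, 0.17 with print-tip loess) and the kinase Gsk3b at -0.19 (SE 0.09, -0.09 with print-tip loess). By limma, adjusted p = 0.642 for both of these, 0.679 for Pcsk6 and 0.926 for Cpe.

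Among the regulators of Bdnf transcription, Crtc2, a CREB coactivator, had 0.15, 0.28 and 0.49 in the replicates and a mean of 0.31 (SE 0.11). Camk4, a nuclear calcium-dependent kinase that phosphorylates CREB, had -0.26, -0.14 and -0.56 and a mean of -0.32 (SE 0.11). Each had one sign in all replicates, as did 35.2% of all probes, and neither passed (adjusted p = 0.642 by limma). Creb1 itself, which was measured in 3 pairs and is named outside the rule after its values were seen, had a mean of -0.21 (SE 0.11).

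Of the activity and plasticity genes, Arc, an immediate early gene of synapses, was highest with 0.31, 0.21 and 0.20 in the replicates and a mean of 0.24 (SE 0.09, adjusted p = 0.642 by limma). It lay above 0 on 8 of 10 arrays. Dlg4, the postsynaptic scaffold, was lowest with -0.20, -0.40 and -0.71 and a mean of -0.44 (SE 0.12, adjusted p = 0.642 by limma). Both kept their sign with print-tip loess, at 0.23 and -0.39. Arc and Dlg4 are the extremes of this list. Bdnf, another gene of this kind, had replicates on both sides of 0, as did some other measured genes of the list.

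The partners of Fkbp5 in steroid receptor complexes ran from -0.36 to 0.02 on the log2 scale. A probe was present for 11 of 23 genes, and 9 gave all replicates. Of these 4 lay above 0 and 5 below, near the 45.5% of all probes above 0, and 0 passed the test. With print-tip loess 3 lay above 0 and 6 below. Hsp90aa1, the inducible Hsp90, had 0.02 (SE 0.09) and Hspa4, an Hsp70 family chaperone, -0.36 (SE 0.17), the latter with -0.85 in replicate 3 against -0.05 and -0.17. By limma, adjusted p = 0.961 for Hsp90aa1 and 0.642 for Hspa4. Nr3c1 and Nr3c2, the glucocorticoid and mineralocorticoid receptors, and Fkbp4, the counterpart of Fkbp5 in the complex, have no probe in the annotation. Pgr, the progesterone receptor, lacked replicate 3 and had -0.01 and -0.06 in the other replicates.

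Other genes that glucocorticoids induce were split. A probe was present for 16 of 28 genes of this list, so many such genes could not be followed. Of 10 measured in all replicates 6 lay above 0 and 4 below, against 45.5% of all probes above 0. By limma 0 of them passed, and 1 had an unadjusted p under 0.05, against 6.5% of all probes. Cebpd, an inflammatory transcription factor, was highest at 0.25 (SE 0.15, 0.14 with print-tip loess), with replicates at -0.12, 0.28 and 0.58. Cdkn1a, the cell cycle inhibitor p21, was lowest at -0.41 (SE 0.13, -0.25 with print-tip loess), with -0.10, -0.45 and -0.68. By limma, adjusted p = 0.642 for each. With print-tip loess the split of the list was 3 above and 7 below 0, against 1864 of all 4125 probes above 0.

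Of 7 measured stress axis and steroid genes 3 lay above 0 and 4 below, near the 45.5% of all probes above 0, and 0 passed the test. With print-tip loess 2 lay above 0 and 5 below. Ucn3, a urocortin, was highest at 0.13 (SE 0.13) and read -0.05 with print-tip loess. Oxt, the oxytocin gene, was lowest at -0.24 (SE 0.12, adjusted p = 0.642 by limma). Crhr1, the main cortical receptor of corticotropin-releasing hormone, had -0.03 (SE 0.11), Ucn -0.06 (SE 0.10) and the vasopressin receptor Avpr1b -0.03 (SE 0.12). Hsd11b1, which regenerates active glucocorticoid in tissue, had 0.07 (SE 0.18, 0.24 with print-tip loess), with -0.37, 0.02 and 0.57 in the replicates. Hsd11b2, which inactivates it, had 0.13 (SE 0.17, 0.07 with print-tip loess), with 0.61, -0.01 and -0.21. The replicates of both enzymes lay on both sides of 0.

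The remaining 5 genes of the stress axis with a probe lacked a replicate, and 8 genes of that list had no probe. Cyp11a1, the first enzyme of steroid synthesis, had 0.17 and 0.19 in replicates 1 and 2, and Star, which brings cholesterol to it, -0.05 and -0.26. Mc2r, the corticotropin receptor, had 0.16 and -0.06. Nr0b1, a repressor of steroid synthesis genes, had a single replicate at -0.19, and the vasopressin gene Avp a single array at -0.12. Over the 3 lists of the steroid and stress genes, 13 of 26 measured probes lay above 0, against 45.5% of all probes fitted. With print-tip loess 8 of 26 did, against 1864 of all 4125 probes, so the balance of these lists differed between the normalisations. These splits were not tested.

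Within the FKBP family 8 of 15 genes had a probe. Of the 4 measured in all replicates 3 lay above 0, against 45.5% of all probes fitted, and 0 passed, as over all probes. Their median was 0.05, against -0.02 over all probes. With print-tip loess all 4 lay above 0, and with median centring 50%. The split of so few probes was not tested. Fkbp1b was highest at 0.20 (SE 0.19), with replicates at -0.25, 0.11 and 0.73, and Fkbp8, an anchored mitochondrial member, lowest at -0.03 (SE 0.10, 0.05 with print-tip loess). Fkbp1a, the target of the drugs FK506 and rapamycin, had 0.02 (SE 0.09), and Fkbp2 of the endoplasmic reticulum 0.09 (SE 0.11). Fkbp7, also of the endoplasmic reticulum, had 0.17 and 0.23 in replicates 1 and 2. Fkbpl had 0.14 in replicate 1 and Fkbp11 values on 2 arrays, -0.49 and 0.48. Fkbp5, with replicates at -0.00 and 0.08, lay within the range of the family.

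**Figure D4:**
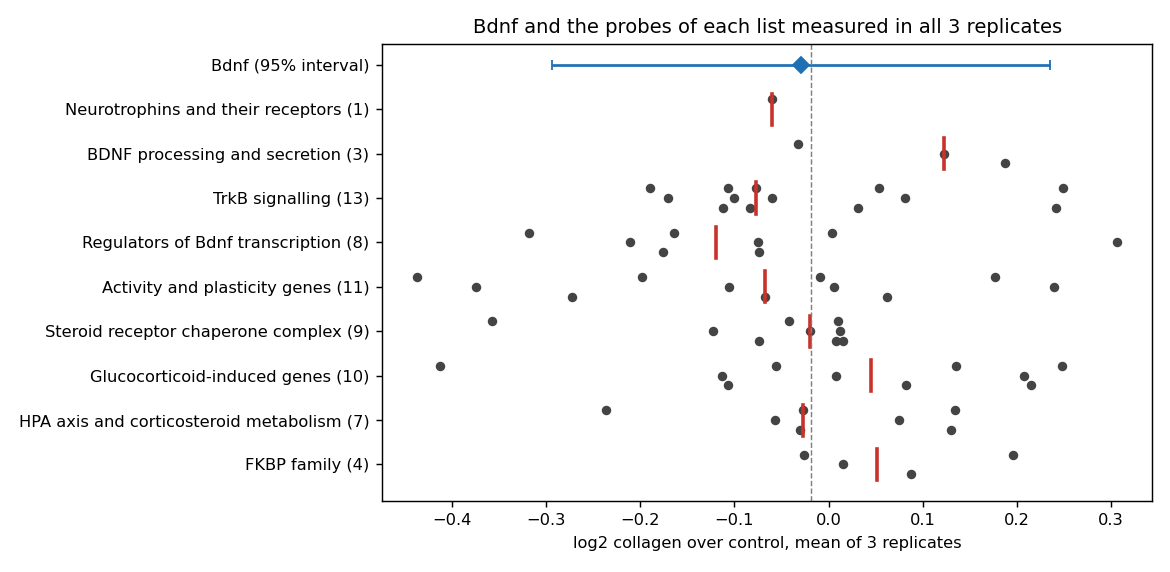
The log2 ratio of collagen over control, as the mean of 3 replicates, for each probe of the lists around Bdnf and Fkbp5 that was measured in all replicates (points, with their number beside the list) and the median of each list (red bar). The diamond is Bdnf at -0.03 with its 95% interval, and the dashed line is the median of all probes fitted, -0.02. Points run from -0.44 for Dlg4 to 0.31 for Crtc2.

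The probes most like each member were found by the mean absolute difference of log2 ratios over the 9 arrays that measured it, as a description without a test. For Bdnf they were Stam2 (0.133), Fancg (0.135), Gosr2 (0.136), Gpr162 (0.138) and Rab11a (0.146), against a median of 0.416 over 2242 probes. All of them lie in grid rows 11 and 12 and grid columns 3 and 4, beside or in the grid of Bdnf. For Fkbp5 they were Ilf2 (0.123), Bean1 (0.134), Dazap1 (0.152), Tmem135 (0.155) and Zswim8 (0.158), against a median of 0.346 over 2190 probes. They lie in grid rows 3 to 9 and grid columns 1 to 3. Dazap1 and Tmem135 lie in grid row 9 and grid column 3, beside the grid of Fkbp5, and the others lie further away. These arrays share dye, slide and normalisation, and the part of place on the array in this likeness was not tested.

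**Figure D5:**
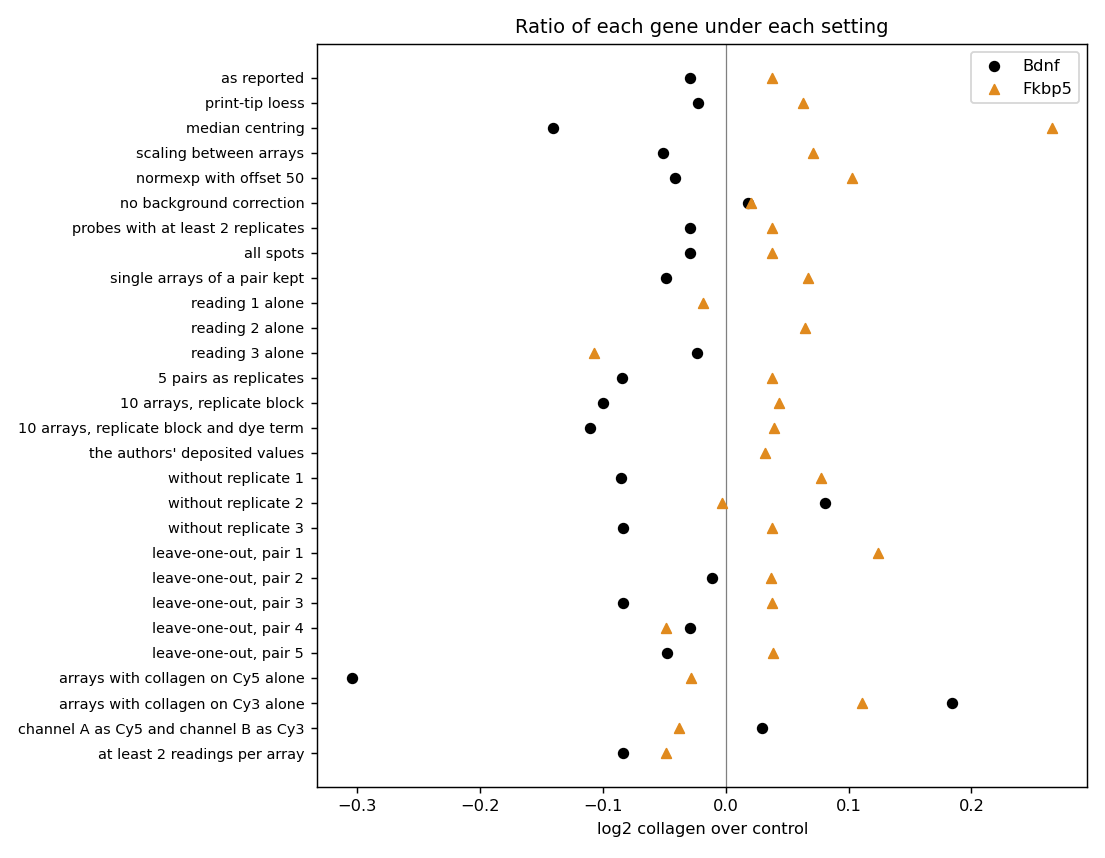
The log2 ratio of collagen over control for Bdnf (circles) and Fkbp5 (triangles) as reported and under each other setting that gave a value. Bdnf runs from -0.30 with arrays of collagen on Cy5 alone to 0.18 with arrays of collagen on Cy3 alone, and Fkbp5 from -0.11 with reading 3 alone to 0.27 with median centring.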

How the data were processed

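The deposited files hold, per the file headers, a spot intensity corrected for background in channels A and B, the local background and a flag, with 3 readings for each of 10 arrays. No source used here names the scanner or software. Spots at or below 0 in a channel were not measured. Log2 ratios were normalised per reading by limma's global loess (span 0.3) over all spots, averaged over readings, turned to collagen over control, averaged over both arrays of a dye-swap pair and then over the pairs of a title number. The 4125 listed probes with 3 replicates were fitted with lmFit and eBayes in limma 3.58.1 under R 4.3.3, as two-sided tests whose p-values were adjusted by the Benjamini-Hochberg method. Blocked fits used statmod 1.5.0. The SE given is the moderated one, and the number of arrays limits precision. The authors' deposited table holds a score per spot, a log ratio of unstated base, and served as an alternative.

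Spot numbers ran along grids, then rows and columns, and 1002 unlisted spots were left out of the fit. Symbols were updated by Entrez ID (RefSeq, GRCm38.p6), which held 99.0% of the probes. The fit was tested on simulated data with large planted differences and without missing values or grid effects, unlike the data here. Members and lists were chosen with earlier results of these data known. Named were both members, the highest and lowest measured probe of each list, every neurotrophin receptor, FKBP, steroid receptor and stress axis gene with a probe, and the 5 nearest probes. Probe sequences were not used here.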

Additional observations from a re-analysis of the deposited data

Results flagged for a closer look

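Of 14 groups of at least 4 values of Bdnf or Fkbp5 examined for a sample far from the others, 1 held such a sample, and chance marks about 1 group in 20. Among the 4 arrays with collagen on Cy5, the Bdnf log2 ratio of pair 2 was -0.75, and the next lowest was -0.26. The median of its grid on that array was -0.53, and with loess within the grid Bdnf read -0.17 there. The part of array position in this value was not tested.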

How the results depend on the processing

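Over 23 alternatives the Bdnf log2 ratio ran from -0.30 to 0.18 with adjusted p-values by limma from 0.482 to 1.00, and it passed in none of them. It changed sign with no background correction (0.018), without replicate 2 (0.081), on arrays with collagen on Cy3 alone (0.18) and with the channel letters exchanged (0.029). Leaving out a replicate or pair gave -0.086 to 0.081. With the replicate block on 10 arrays Bdnf read -0.10 (adjusted p = 0.802) and Fkbp5 0.04 (adjusted p = 0.913), with limma's consensus correlation at -0.13. Bdnf could not be fitted with reading 1 or 2 alone, with the authors' values, without pair 1 or among probes above background on every array. Fkbp5 moved beyond its SD of 0.06 with median centring (0.27), normexp (0.10), reading 3 (-0.11), collagen on Cy5 alone (-0.029), on Cy3 alone (0.11), exchanged letters (-0.038) and at least 2 readings per array (-0.049, an alternative chosen after seeing the data). Leaving out a replicate or pair gave it -0.049 (without pair 4) to 0.12 (without pair 1). Both of these also moved beyond that SD, which comes from 2 replicates only. The cause of these moves was not tested, apart from the exchange of letters, which turns each sign by construction.

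Over all probes 1 passed with scaling between arrays and 1 in the authors' values. With collagen on Cy5 alone 28 passed and on Cy3 alone 18, where the dye is not balanced. Leaving out a replicate or pair gave 0 to 1. Of the stress axis lists 30.8% of probes lay above 0 with print-tip loess, against 13 of 26 as reported. Over all 4125 probes 1864 lay above 0 with print-tip loess, and 45.5% as reported.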
